A study of Homo sapiens with 36 samples.

Results

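K562 is an established human line from a chronic myeloid leukemia in blast crisis that keeps an erythroid bias and makes embryonic and fetal globins. In a set of 24 K562 libraries, each combination of line and day was sequenced in duplicate, and the labels call the copies bio rep 1 and bio rep 2. The 12 libraries of bio rep 2 were set against the 12 of bio rep 1, matched by line and day, out of 36 samples in the series. The question was which gene programs moved between these rounds when line, day and treatment were held equal.

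The 4 lines comprised the parental cells, a line named LMO2 control, and the LMO2 degron cells in versions 1 and 2 ("rep" in the labels), read here as degron line 1 and degron line 2. Parental and LMO2 control cells are called the control lines. Each line was taken on day 0 with no dTAGv1 and on days 1 and 4 with dTAGv1, at 750 uM as the labels give it. dTAGv1 binds a tag on the LMO2 protein and recruits an E3 ubiquitin ligase to it, so the tagged protein is broken down; the parental cells received the same agent on the same days. LMO2 is an adaptor in erythroid transcription factor complexes. What the LMO2 control line carries, whether a degron line is 1 clone, and what separates the bio reps (thaw, passage, medium or date) are not given in the sources used here. Polyadenylated RNA, extracted with phenol-chloroform or Trizol, was sequenced from libraries made by Azenta.

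The programs followed here are those by which an erythroleukemia line shows the state of its culture. MYC drives ribosome biogenesis and growth. Heat shock factors, ATF4 and HIF answer unfolded protein, amino acid shortage and low oxygen; HIF in turn controls glycolytic genes. Globin, heme and red cell membrane genes mark erythroid maturation and depend on GATA1, TAL1 and KLF1. In a bulk library, fewer cells in a state and less RNA per cell cannot be told apart. Libraries of 1 bio rep may also share their source, so p-values measure how steady a difference was over lines and days, not over further rounds.

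Depth ran from 17.2M to 26.3M reads per library, as recovered from the steps of the FPKM values (reads per kilobase of gene and per depth of the library), and did not differ detectably between bio reps (exact sign-flip test over 12 pairs, two-sided p = 0.771). Bio rep 2 had on average 333 fewer genes at 1 FPKM or more (exact sign-flip p = 0.004395, adjusted over 6 library measures p = 0.01318). Some libraries stood apart in genes of other tissues, in marker lists chosen after values were seen. All 15 placental markers were above 0 in 10 libraries, namely parental day 0 and day 4 of bio rep 1 and all 8 libraries of bio rep 2 from days 1 and 4. There they summed to 27 to 55.4 FPKM, with the placental hormone gene CSH1 at 13.1 to 26.9, against 0.0684 to 0.419 in the other 14 libraries. A list of 9 hepatic markers summed to 2.4 to 3.03 FPKM in parental day 1 of bio rep 1 and parental days 0 and 4 of bio rep 2, against 0.0163 to 0.208 in the other 21. The placental genes made up at most 0.0174% of all FPKM in any library. The pairs with neither trace were the 3 day 0 pairs of LMO2 control, degron line 1 and degron line 2. Counts from these alone, chosen after seeing the data, are given beside the main gene groups. These pairs are called the pairs without other-tissue RNA below, which means only without these traces. No tissue but placenta and liver was looked at. Some of those markers were above 0 in these pairs too, summing to at most 0.419 FPKM per list. Of markers of other blood cells, 10 of 16 megakaryocyte, 11 of 18 monocyte and granulocyte, 8 of 10 mast cell and 9 of 14 lymphoid genes reached 1 FPKM in no library. Summed, the megakaryocyte list was at 12.1 to 23.5 FPKM in bio rep 1 and 10.8 to 20.9 in bio rep 2, and the monocyte and granulocyte list at 21.7 to 139 and 32.3 to 173. The mast cell list summed to 38.7 to 103 and 37.5 to 94.3, with GATA2 at up to 95.2. The lymphoid list summed to 10.7 to 154 and 10.5 to 137, with CD3D at up to 142. The erythroid factor GATA1 was at 51.9 to 186 FPKM in the 24 libraries and fetal globin HBG1 at 13.3 to 285.

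Differences are means of 12 matched differences in log2(FPKM + 1), bio rep 2 minus bio rep 1, ± SE. Of 15348 genes tested, 49.5% were called at an adjusted p under 0.05: 3656 were higher in bio rep 2 (23.8%) and 3936 lower (25.6%), with a median of -0.017 over all genes. Most differences were small, and 10 called genes were at least 2-fold higher and 43 at least 2-fold lower. Each count of a gene group over all 12 pairs is to be read against these shares. In the fit of the 3 pairs without other-tissue RNA, 10% of all genes were higher and 12.8% lower; without the parental line, 17.6% and 18.5%; without day 1, 17.6% and 24.5%. Counts from those fits are to be read against their own shares. The first principal component held 48.1% of the variance and set the degron lines apart from the control lines. The second held 12.3% and separated the bio reps without overlap, with bio rep 1 at 5.77 to 33.3 and bio rep 2 at -31.1 to -5.86. The 66 correlations between the difference profiles of 2 pairs ran from 0.119 to 0.662 with a median of 0.377; these are over genes, which are not independent, and are a description.

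**Figure D1:**
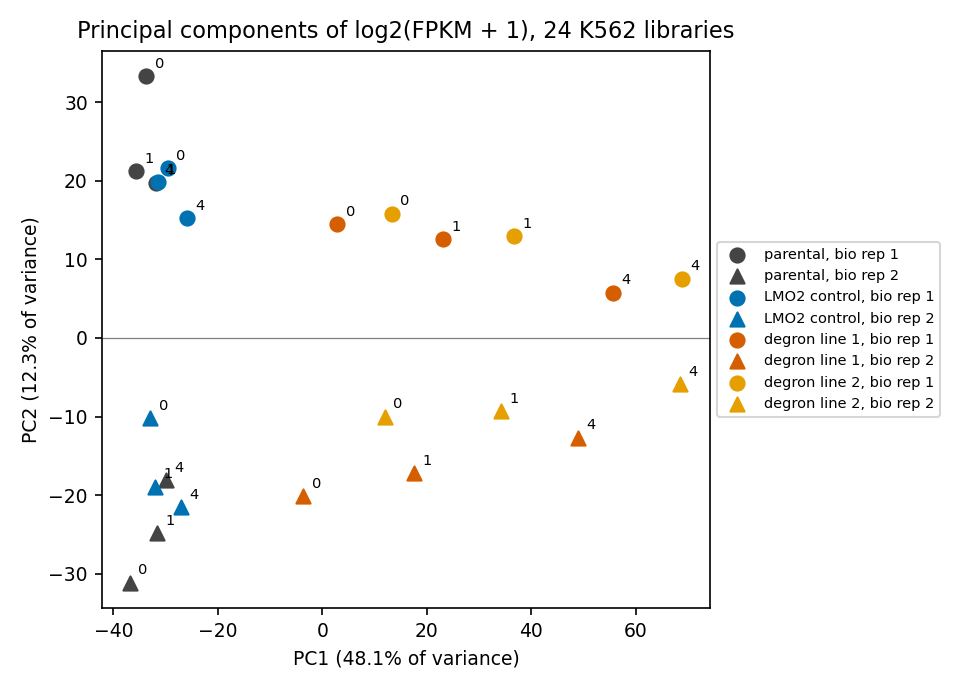
Each point is 1 of 24 K562 libraries placed by the first 2 principal components of log2(FPKM + 1), in units of component score; colour gives the line, shape the bio rep and the number the day. All bio rep 1 libraries lie above 0 on the second component (5.77 to 33.3) and all bio rep 2 libraries below it.

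The promoters of P4HA1 and DNAJA1 are printed because these genes stand for a group that was lower and a group that was higher in bio rep 2, and their windows hold the motif by which the group is known. They are the 250 bases before the start of transcription, from RefSeq on GRCh38.p14, read 5′ to 3′ along the gene. P4HA1, a prolyl hydroxylase subunit of collagen synthesis and a classical HIF target, lies on the minus strand at chr10:73096867-73097116, and the capitals mark the core of a hypoxia response element, ACGTG, here on the opposite strand. DNAJA1, a co-chaperone of HSP70, lies on the plus strand at chr9:33025023-33025272, and the capitals mark a heat shock element, GAANNTTC.
P4HA1: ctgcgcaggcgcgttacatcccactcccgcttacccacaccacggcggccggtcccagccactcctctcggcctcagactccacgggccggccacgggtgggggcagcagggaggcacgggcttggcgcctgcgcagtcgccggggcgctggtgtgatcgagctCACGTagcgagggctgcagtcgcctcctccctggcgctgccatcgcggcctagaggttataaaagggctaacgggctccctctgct
DNAJA1: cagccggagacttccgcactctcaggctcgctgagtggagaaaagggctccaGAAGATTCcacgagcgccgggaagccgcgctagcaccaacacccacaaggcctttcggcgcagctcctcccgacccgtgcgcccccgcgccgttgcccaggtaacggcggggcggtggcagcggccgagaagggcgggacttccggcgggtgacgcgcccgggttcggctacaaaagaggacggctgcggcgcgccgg
Promoters were found for 16 of the 18 tested HIF targets, and 10 of them (62.5%) held ACGTG on either strand, against 18.7% of all 27305 promoters. Among heat shock genes, 6 of 18 promoters (33.3%) held GAANNTTC, against 5.85% of all; both strands were searched. Among called members with a promoter, 7 of 11 HIF targets and 4 of 15 heat shock genes held their motif. The 2 printed genes were picked from these, while MXI1, KDM3A, PDK1, AHSA1 and STIP1 held 0 sites. A match is a description of the letters, not of binding.

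HIF targets were lower in bio rep 2 across all lines and days. Of 18 tested, 13 were lower and 0 higher, with a median of -0.45, and the list median was below 0 in 12 of 12 pairs. MXI1, a MAX partner that opposes MYC, ran from 5.75 (median 9.55) to 10.7 FPKM in bio rep 1 and from 3.41 (median 4.82) to 6.18 in bio rep 2. The ranges overlapped only between the highest bio rep 2 and the lowest bio rep 1 libraries, and MXI1 was lower in 12 of 12 pairs (-0.77 ± 0.05, adjusted p = 1.31e-06). KDM3A, a histone demethylase, stood at 10.5 to 14.7 FPKM (median 12.8) against 5.46 to 8.97 (median 7.68), with no overlap (-0.66 ± 0.05, adjusted p = 4.98e-06). PDK1, the kinase that keeps pyruvate out of the mitochondrion, was at 3.52 to 6.59 FPKM (median 5.45) against 1.14 to 3.67 (median 2.69). The groups met only at that edge, and PDK1 was lower in 12 of 12 pairs (-0.80 ± 0.07, adjusted p = 6.37e-06).

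VEGFA, the angiogenic ligand of the group, was at 20.2 to 55.7 FPKM (median 33.4) in bio rep 1 and at 4.41 to 27.2 (median 13.8) in bio rep 2. It was lower in 12 of 12 pairs (-1.23 ± 0.16, adjusted p = 5.41e-05), by -0.62 on day 1 and -1.57 on day 4. P4HA1, whose promoter is printed above, ran from 42 to 69.9 FPKM (median 55.1) against 14.5 to 51.8 (median 25.9). Its difference was -1.04 ± 0.10 (adjusted p = 8e-06) and it was lower in 12 of 12 pairs. BNIP3, a mitophagy receptor, differed by -0.76 ± 0.07 and the pH regulator CA9 by -0.65 ± 0.12. The 5 members not called were CA12, ANKRD37, EGLN3, ERO1A and BHLHE40, with differences of -0.16, -0.33, -0.26, -0.13 and -0.06. Among the 3 pairs without other-tissue RNA, 12 of the 18 were lower and 0 higher, with the same median of -0.45; without the parental line 13 were lower.

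Glycolytic genes were lower on the whole, unevenly between members and between lines. Of 21 tested, 12 were lower and 1 higher (HK1, 0.10), with a median of -0.24. ALDOC, an aldolase, ran from 28.2 to 161 FPKM (median 85.3) in bio rep 1 and from 14.7 to 64.2 (median 41.8) in bio rep 2. ENO2, the neuronal enolase, was at 24.6 to 81.9 (median 35.8) against 12.4 to 43.8 (median 22.5), and ALDOA at 14 to 74 (median 52.4) against 10.2 to 42.4 (median 30.5). All 3 ranges overlapped between the bio reps, yet each gene was lower in 12 of 12 pairs: ALDOC by -1.03 ± 0.09 (adjusted p = 7.49e-06), ENO2 by -0.75 ± 0.06 (5.33e-06) and ALDOA by -0.76 ± 0.09 (2.93e-05). PFKFB4, which makes the activator of phosphofructokinase, differed by -0.81 ± 0.10. Of the 8 members not called, TPI1, PGAM1, GAPDH and PKM stood at 0.00, -0.01, -0.03 and 0.03. Without other-tissue RNA, in 3 pairs, 4 of 21 members were lower with a median of -0.27, beside 12.8% of all genes lower in that fit.

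**Figure D2:**
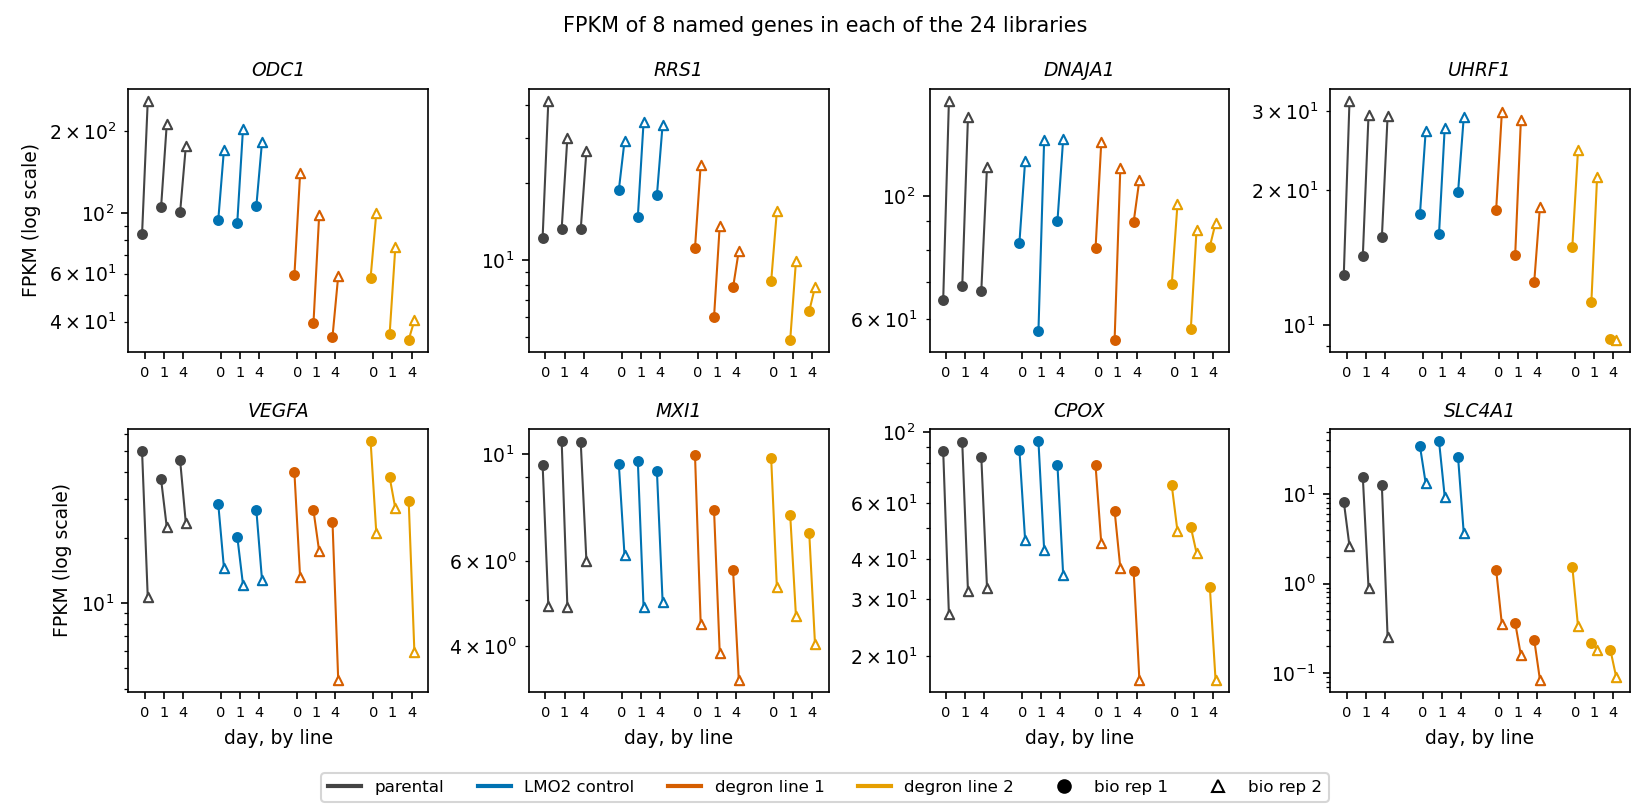
FPKM (log axis) of 8 named genes in the 24 libraries, by day within each line; a line joins the 2 libraries of a pair, filled circles are bio rep 1 and open triangles bio rep 2. ODC1, RRS1 and DNAJA1 are higher in bio rep 2 in 12 of 12 pairs and UHRF1 in 11, while VEGFA, MXI1, CPOX and SLC4A1 are lower in 12 of 12.

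MYC-linked and ribosome biogenesis genes showed the opposite sign. Of 21 tested, 19 were higher in bio rep 2 and 1 lower, with a median of 0.54, the highest of the 38 lists, and the list median was above 0 in 12 of 12 pairs. ODC1, the first enzyme of polyamine synthesis and a MYC target, ran from 34.3 to 106 FPKM (median 71.4) in bio rep 1 and from 40.4 to 258 (median 156) in bio rep 2. The ranges overlapped, with the degron libraries below the control libraries in each bio rep, and within pairs ODC1 was higher in 12 of 12 (0.96 ± 0.09, adjusted p = 7.96e-06). RRS1, which acts in assembly of the large ribosomal subunit, was at 4.88 to 18.7 FPKM (median 11.7) against 7.82 to 41.7 (median 25.0). It was also higher in 12 of 12 pairs (0.91 ± 0.10, adjusted p = 1.33e-05). NOLC1, a nucleolar chaperone of snoRNP particles, was at 17.7 to 69.2 FPKM (median 52.1) against 20.7 to 117 (median 83.8) and differed by 0.54 ± 0.06 (adjusted p = 1.96e-05). RNA polymerase I subunits POLR1A and POLR1B both differed by 0.57, and the snoRNP proteins NOP56 and NOP58 by 0.61 and 0.55.

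The member that was lower was NOB1, a nuclease of late small-subunit maturation, at -0.13. MYC itself missed the threshold, at 0.18 ± 0.07 (adjusted p = 0.0527). Its mean joins days that differed: MYC had a called day 1 minus day 0 contrast. That call was kept in 11 of 12 fits that left out a pair. Of the 15 members' promoters found, 0 held the E-box CACGTG, which contains ACGTG, against 6.49% of all promoters; this says only that these letters are not in that window. Outside the list, the 10 largest rises included GPATCH4 (0.99 ± 0.11) and CCDC86 (0.95 ± 0.12), which are nucleolar proteins, and SLC5A6 (0.87 ± 0.10), the transporter of biotin and pantothenate. DANCR, a long noncoding RNA, differed by 0.98 ± 0.09. Over the 3 pairs without other-tissue RNA, 15 of the 21 list members were higher and 1 lower, with a median of 0.47.

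Cytosolic ribosomal protein mRNAs did not follow the biogenesis factors. Of 27 tested, 23 were lower and 0 higher, with a median of -0.20. RPL3 ran from 368 to 857 FPKM (median 694) in bio rep 1 and from 341 to 618 (median 536) in bio rep 2. RPS3 was at 186 to 595 (median 436) against 168 to 438 (median 347). Levels overlapped widely but each was lower in 12 of 12 pairs, RPL3 by -0.37 ± 0.05 (adjusted p = 8.53e-05) and RPS3 by -0.33 ± 0.04 (adjusted p = 5.69e-05). RPS14 differed by -0.30 ± 0.04. The 4 not called were RPL19, RPL35, RPLP1 and RPS15, between -0.09 and -0.02. The share of all FPKM held by ribosomal protein genes fell from a median of 9.25% to 7.89%, lower in 12 of 12 pairs (exact sign-flip p = 0.0004883, the smallest this design can give; adjusted p = 0.00293). From the 3 pairs without other-tissue RNA, 4 of the 27 were lower, with a median of -0.14, which is close to the 12.8% of all genes lower in that fit. These genes have many processed copies, so their values are uncertain in size. GAS5, a noncoding snoRNA host, was also lower, at 40.4 to 127 FPKM (median 70.5) against 29 to 61 (median 40). Its difference was -0.76 ± 0.08 (adjusted p = 1.14e-05). Not all snoRNA hosts went this way, since SNHG12 was higher.

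Heat shock and chaperone genes were higher in bio rep 2. Of 19 tested, 15 were higher and 1 lower, with a median of 0.37, and the list median was above 0 in 12 of 12 pairs. DNAJA1, whose promoter is printed above, ran from 55 to 90.2 FPKM (median 69) in bio rep 1 and from 86.7 to 148 (median 114) in bio rep 2, so that the groups overlapped between 86.7 and 90.2. It was higher in 12 of 12 pairs (0.68 ± 0.09, adjusted p = 5.25e-05). The HSP90 co-chaperones AHSA1 and STIP1 were at 15.8 to 30.7 (median 25.4) against 20.7 to 51.6 FPKM (median 39.0) and at 44.0 to 92.2 (median 68.8) against 56.4 to 142 FPKM (median 99.1). Both were higher in every pair, AHSA1 by 0.60 ± 0.07 (adjusted p = 1.98e-05) and STIP1 by 0.53 ± 0.06 (adjusted p = 2.42e-05). HSPH1, a nucleotide exchange factor for HSP70, differed by 0.68 ± 0.11, and the mitochondrial chaperonins HSPD1 and HSPE1 by 0.46 and 0.51.

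The inducible HSP70 genes themselves were not called: HSPA1A stood at -0.01 and HSPA1B at -0.10, near-identical copies whose reads could be split, and DNAJB1 at 0.20. DNAJB4 was the member that was lower, at -0.50 ± 0.11. In the 3 pairs without other-tissue RNA, 11 members were higher and 1 lower, with a median of 0.30. Chaperones of the endoplasmic reticulum differed less in the median: 8 of 19 unfolded protein response genes were higher and 2 lower (DNAJB9 and HERPUD1), with a median of 0.09. SDF2L1, a cofactor of the HSP70 of that compartment, differed most of these, at 113 to 196 FPKM (median 160) against 136 to 379 (median 253), or 0.63 ± 0.07 (adjusted p = 2.3e-05).

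Genes of the ATF4 arm of the integrated stress response were lower. Of 16 tested, 11 were lower and 1 higher (ATF5, 0.38), with a median of -0.34. The list median was below 0 in 10 of 12 pairs. It was above 0 on day 4 in degron line 1 (0.07) and degron line 2 (0.15). By day, the list median was -0.53, -0.41 and -0.13 on days 0, 1 and 4. ATF4, the transcription factor, ran from 71.7 to 183 FPKM (median 132) in bio rep 1 and from 65.1 to 137 (median 85.7) in bio rep 2, lower in 12 of 12 pairs (-0.49 ± 0.07, adjusted p = 0.000142). PPP1R15A, which recruits the phosphatase that ends the response, was at 33.0 to 83.0 FPKM (median 62.6) against 28.7 to 58.6 (median 37.6), a difference of -0.63 ± 0.10 (adjusted p = 0.000131). ATF3 differed by -0.65 ± 0.13, asparagine synthetase ASNS by -0.63 ± 0.16 and the glutathione-degrading CHAC1 by -0.83 ± 0.17. In serine and one-carbon metabolism, in part an ATF4 program, 5 of 12 genes were lower and 1 higher. Among them MTHFD2 of the mitochondrial folate pathway differed by -0.54 ± 0.09, and its cytosolic relative MTHFD1 by 0.40 ± 0.05. In the 3 pairs without other-tissue RNA, 10 ATF4 list members were lower and 1 higher, with a median of -0.45.

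Cell cycle genes split by phase. Of 25 S phase genes, 18 were higher and 2 lower, with a median of 0.22. UHRF1, which maintains DNA methylation at replication, ran from 9.30 to 19.8 FPKM (median 14.6) in bio rep 1 and from 9.27 to 31.6 (median 28.1) in bio rep 2. It was higher in 11 of 12 pairs (0.72 ± 0.08, adjusted p = 1.96e-05), the exception being degron line 2 on day 4. FEN1, the flap nuclease of lagging strands, was at 33.6 to 93.1 FPKM (median 73.2) against 33.9 to 135 (median 117), and PCNA, the sliding clamp, at 104 to 254 (median 207) against 92.0 to 340 (median 296). They differed by 0.54 ± 0.06 (adjusted p = 2.77e-05) and 0.38 ± 0.06 (adjusted p = 0.000127). The 2 lower members were the licensing factor CDT1 (-0.56 ± 0.10) and the helicase subunit MCM5 (-0.13).

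Of 23 G2 and M phase genes, 3 were higher and 6 lower, with a median of 0.01, against the same background of 23.8% and 25.6%; the 3 pairs without other-tissue RNA gave 0 higher and 5 lower. CCNB1, the mitotic cyclin, differed by 0.21 ± 0.04, and KIF20A, a kinesin of cytokinesis, by -0.45 ± 0.08. The S phase count fell to 10 higher and 2 lower without day 1, and was 12 and 1 in the 3 pairs without other-tissue RNA. Of 13 replication-dependent histone genes, 3 were higher (H2BC12, H2AC20 and H1-5) and 1 lower (H1-3), or 4 and 0 in those 3 pairs.

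**Figure D3:**
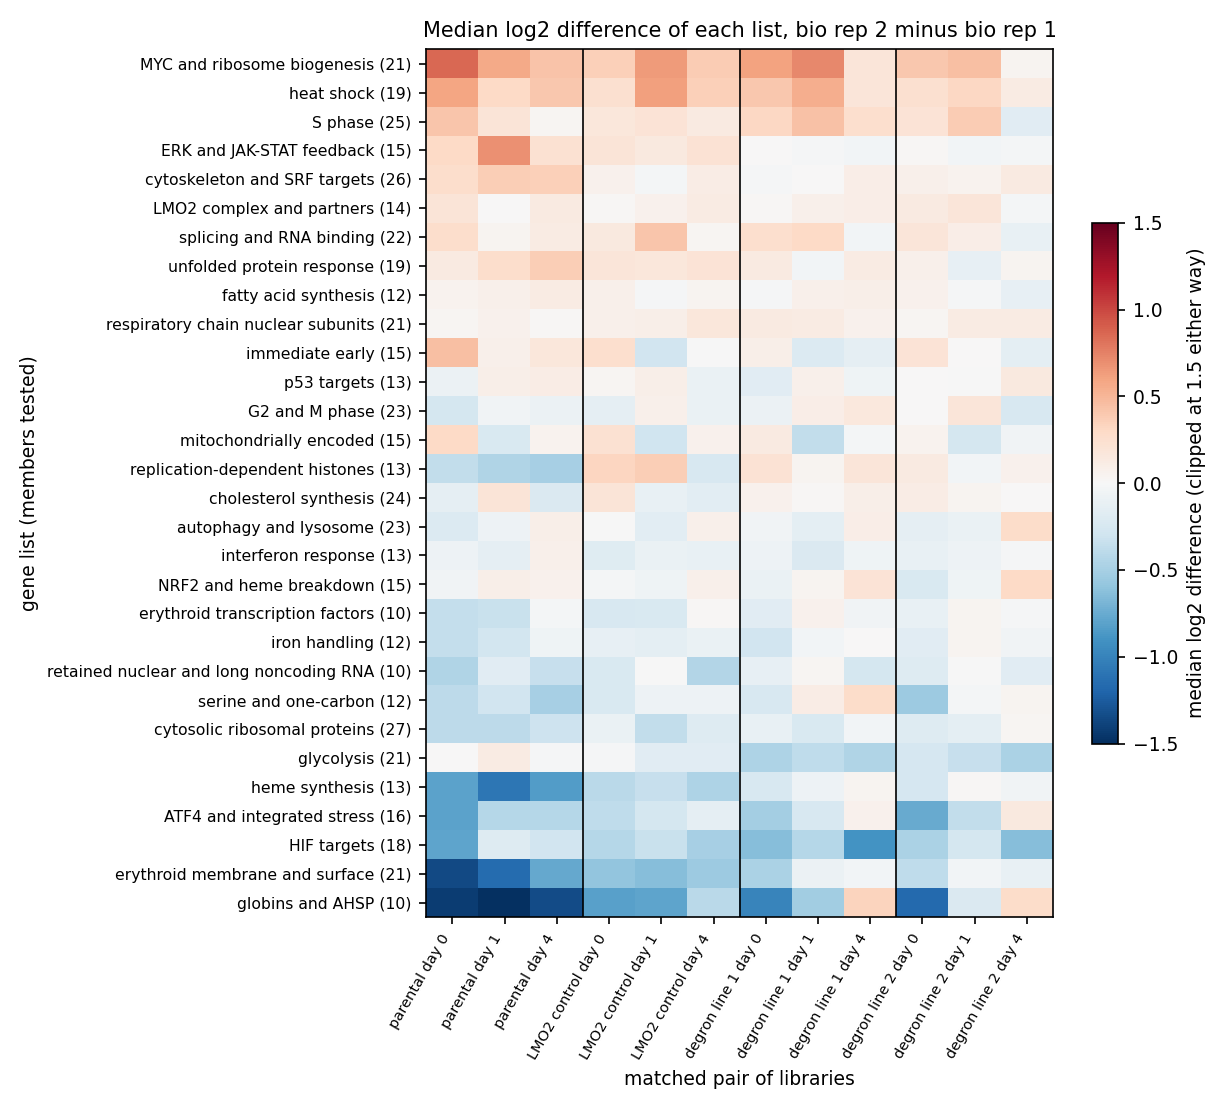
Median log2 difference (colour, clipped at 1.5 either way) of each gene list with at least 10 tested members, in rows ordered by the median over all pairs, in each of the 12 matched pairs, in columns grouped by line. MYC and heat shock lists are above 0 in 12 of 12 pairs and HIF targets and erythroid membrane genes below 0 in 12 of 12, while globins are below 0 in 10 and above 0 in the day 4 pairs of both degron lines.

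Red cell genes were lower in bio rep 2, and here the lines differed. A pair of promoters is shown because both hold the GATA motif AGATAA, printed in capitals on either strand. RHD, an Rh blood group protein, lies on the plus strand at chr1:25272236-25272485 and CPOX, the heme enzyme coproporphyrinogen oxidase, on the minus strand at chr3:98593612-98593861 (GRCh38.p14, RefSeq).
RHD: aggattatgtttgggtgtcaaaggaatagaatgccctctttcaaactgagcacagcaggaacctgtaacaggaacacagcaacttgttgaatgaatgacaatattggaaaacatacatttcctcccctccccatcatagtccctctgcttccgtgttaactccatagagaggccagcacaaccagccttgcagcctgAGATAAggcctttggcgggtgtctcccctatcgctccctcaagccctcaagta
CPOX: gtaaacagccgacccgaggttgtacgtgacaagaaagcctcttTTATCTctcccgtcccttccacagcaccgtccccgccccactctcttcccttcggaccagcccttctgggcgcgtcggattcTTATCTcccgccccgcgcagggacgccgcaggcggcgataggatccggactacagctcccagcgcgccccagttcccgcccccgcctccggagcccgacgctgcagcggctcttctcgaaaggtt
Of the 15 membrane and surface genes with a promoter, 6 (40%) held AGATAA on either strand, and 2 of 10 heme genes (20%), against 9.37% of all promoters. For globins and AHSP 2 promoters were found, of HBM and HBD, and that of HBD held it.

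Of 21 erythroid membrane and surface genes, 17 were lower and 0 higher, with a median of -0.57, and the list median was below 0 in 12 of 12 pairs. TMOD1, which caps actin in the membrane skeleton, ran from 3.37 to 33.5 FPKM (median 19.9) in bio rep 1 and from 1.17 to 14.1 (median 9.23) in bio rep 2. It was lower in 12 of 12 pairs (-1.03 ± 0.09, adjusted p = 4.98e-06). DMTN, dematin of the same skeleton, was at 20.7 to 58.7 FPKM (median 34.1) against 11.5 to 42.6 (median 23.6), or -0.63 ± 0.07 (adjusted p = 1.71e-05). RHD was at 2.22 to 29.8 FPKM (median 14.3) against 1.57 to 16.9 (median 6.81), a difference of -0.71 ± 0.12 (adjusted p = 0.000273); its near-identical neighbour RHCE differed by -0.89, and reads of the pair may be shared. SLC4A1, band 3, was at 0.181 to 39.1 FPKM (median 4.90) against 0.0839 to 13.2 (median 0.342), lower in 12 of 12 pairs (-1.34 ± 0.30, adjusted p = 0.00224). Its range is wide: the 6 degron libraries of each bio rep all lay under 2 FPKM. The 4 not called were ANK1, GYPE, RHAG and TFRC, at -0.02, -0.34, 0.00 and -0.12.

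In heme synthesis, 7 of 13 genes were lower and 1 higher, with a median of -0.30. The mitochondrial iron importer SLC25A37 ran from 50.4 to 216 FPKM (median 126) in bio rep 1 and from 21.7 to 107 (median 40.4) in bio rep 2, lower in 12 of 12 pairs (-1.30 ± 0.18, adjusted p = 6.89e-05). CPOX was at 32.8 to 93.7 FPKM (median 78.6) against 16.8 to 49.1 (median 36.7), a difference of -0.98 ± 0.11 (adjusted p = 1.71e-05). The first step of the pathway went both ways: the erythroid enzyme ALAS2 was at 56.2 to 313 FPKM (median 234) against 25.0 to 157 (median 102) and lower by -1.30 ± 0.23, while the housekeeping enzyme ALAS1 was higher by 0.50 ± 0.08 (adjusted p = 0.000298). ALAD, UROD, SLC25A38 and TMEM14C stood between -0.09 and 0.04 and were not called, nor was ABCB10, a mitochondrial transporter, at -0.30.

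Of 10 globin genes and AHSP tested, 8 were lower and 0 higher, with a median of -0.70. HBE1, embryonic epsilon globin, ran from 1.44 to 7.16 FPKM (median 3.36) in bio rep 1 and from 0.671 to 3.93 (median 1.78) in bio rep 2. It was lower in 12 of 12 pairs (-0.69 ± 0.09, adjusted p = 4.1e-05). HBG2, fetal gamma globin, was at 4.08 to 45.2 FPKM (median 25.9) against 3.53 to 21.2 (median 12.6), also lower in 12 of 12 (-0.88 ± 0.13, adjusted p = 0.000119). HBG1, its near-identical copy, differed by -0.78, so the split of reads between them is uncertain. HBQ1 differed by -0.50 ± 0.08 and AHSP, the chaperone of free alpha globin, by -1.03 ± 0.22. HBA2 (-0.66, adjusted p = 0.0654) and HBD (0.18) were not called, and HBB did not pass the filter on low values. In the 3 pairs without other-tissue RNA, 8 globin list, 12 membrane and 7 heme genes were lower and 0 higher.

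Erythroid transcription factors went both ways. Of 10 tested, 3 were higher (ZFPM1, MYB and IKZF1) and 5 lower (KLF1, GFI1B, TAL1, FOXO3 and KLF3). GATA1 stood at -0.01 and KLF1 at -0.23. FOXO3 was at 4.76 to 8.48 FPKM (median 6.08) against 3.13 to 8.40 (median 3.90), lower in 12 of 12 pairs (-0.40 ± 0.06, adjusted p = 0.000125). MYB, which is high in proliferating progenitors, differed by 0.37 ± 0.06, and ZFPM1, the GATA1 cofactor FOG1, by 0.36 ± 0.05. TAL1 ran from 11.2 to 36.7 FPKM (median 22.1) against 10.2 to 20.3 (median 15.8), a difference of -0.49 ± 0.10 (adjusted p = 0.00107), and LDB1 differed by -0.19 ± 0.04. LMO2 was called with a weak margin (0.30 ± 0.11, adjusted p = 0.0369). It stood at -0.18 in the parental line and at 0.35 to 0.63 in the others, and the call held in 5 of 12 fits that each left out 1 pair.

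Averaged over days, the bio rep difference of several erythroid genes was larger in the control lines than in the degron lines. Between line classes, 415 genes (2.7%) had a called difference of the difference, degron minus control lines, and they included 9 of the 21 membrane, 7 of the 13 heme and 1 of the 10 globin list members (AHSP). The count of 415 rests on few pairs: leaving out 1 pair gave 108 (without degron line 1 day 1) to 364 (without parental day 4), with 3 (without degron line 1 day 1 or degron line 2 day 1) to 10 membrane and 4 (without parental day 1, degron line 1 day 1 or LMO2 control day 4) to 7 heme members. SLC4A1 differed by -2.63 in the parental line and -1.93 in LMO2 control, against -0.42 and -0.36 in the degron lines (1.89 ± 0.35, adjusted p = 0.0236), on the log2(FPKM + 1) scale, which understates changes at its low levels there. That call was lost with a pseudocount of 0.1 and in 6 of 12 fits that left out a pair (parental day 1, LMO2 control day 4, or any day 1 or day 4 pair of a degron line). SLC25A37 differed by -2.27 and -1.35 against -0.72 and -0.86 (1.02 ± 0.18, adjusted p = 0.0191), a call lost without parental day 1, degron line 1 day 1 or LMO2 control day 4. CPOX (0.59 ± 0.12, adjusted p = 0.0342) and RHD (0.65 ± 0.14, adjusted p = 0.044) had contrasts of the same sign, which were called in 3 and 2 of the 12 fits. The contrasts of ALAS2 (1.24 ± 0.20, adjusted p = 0.0158) and AHSP (1.31 ± 0.22, adjusted p = 0.0165) were called in 12 of 12. AHSP had a median of 12.8 reads per library and 0 in the lowest, so the limit of the scale given for SLC4A1 holds for AHSP too. TAL1 stood at -0.93 and -0.67 in the control lines and at -0.04 and -0.32 in the degron lines (0.62 ± 0.09, adjusted p = 0.0103), also called in 12 of 12 fits. The line classes also differ in level, since the control lines express these genes more in both bio reps; the part of this in the result was not tested. List medians by line ran from -1.60 in parental cells to -0.65, -0.22 and -0.36 for globins. That split was not the same on all days. On day 0, without dTAGv1, the globin median was -1.42 and -0.81 in the control lines and -0.99 and -1.17 in the degron lines. It was -1.80 and -0.79 against -0.52 and -0.22 on day 1, and -1.35 and -0.40 against 0.34 and 0.27 on day 4. For membrane genes day 0 gave -1.35 and -0.60 against -0.47 and -0.38. Day 4 gave -0.77 and -0.55 against -0.04 and -0.12. The part of dTAGv1 in this was not tested. Without the parental line, the globin list had 5 lower and 1 higher, with a median of -0.39, and the membrane list 11 lower, with a median of -0.31.

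In glycolysis the list median was 0.03 in parental cells, -0.14 in LMO2 control and -0.46 and -0.44 in the degron lines, and 5 of 21 members had a called difference between line classes. These calls are not stable: leaving out 1 pair gave 0 (without LMO2 control day 0, parental day 1, or day 4 of LMO2 control or either degron line) to 4. SLC2A3, a glucose transporter, was at 24.5, 28.5 and 54.5 FPKM on days 0, 1 and 4 in parental bio rep 1 and at 39.5, 60.6 and 62.7 in bio rep 2. In degron line 1 it was at 65.3, 73.3 and 79.2 against 50.7, 62.5 and 43.1. Bio rep 2 was thus above bio rep 1 in the parental line and below it in degron line 1, and the line contrast was -0.89 ± 0.17 (adjusted p = 0.0265; called in 6 of 12 fits that left out a pair). PFKFB3 (-0.64, adjusted p = 0.0382), PKM (-0.55, 0.0444), PGK1 (-0.43, 0.0434) and GAPDH (-0.30, 0.0496) had line contrasts of the same sign, called in 2, 3, 2 and 1 of those fits. Of the 18 HIF targets, 0 had a called line contrast, and the HIF list median was -0.35, -0.47, -0.62 and -0.48 in the 4 lines.

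**Figure D4:**
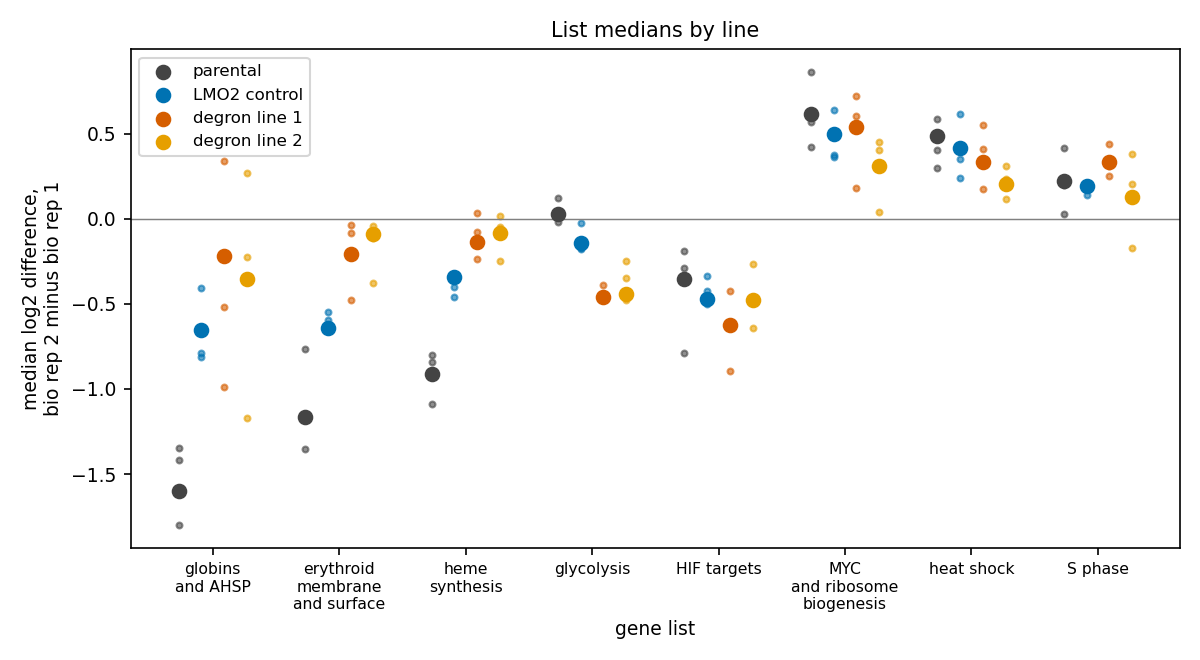
Large points give the median over list members of each line's log2 difference, bio rep 2 minus bio rep 1, for 8 gene lists; small points give the list median in each of that line's 3 pairs. Globin, membrane and heme lists are lowest in the parental line (-1.60, -1.17 and -0.91), the glycolysis medians are lowest in the degron lines (-0.46 and -0.44), and the MYC and heat shock lists are above 0 in each of the 4 lines.

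Other genes with called line contrasts, among the 5 largest each way, were TLNRD1 (-0.97 ± 0.12, adjusted p = 0.0051) and SERPINB9 (-1.05 ± 0.18, adjusted p = 0.0176), an inhibitor of granzyme B. TLNRD1, an actin-bundling protein, was at 3.22 to 5.33 FPKM in parental bio rep 1 and at 11.1 to 16.8 in bio rep 2, without overlap, and the degron lines stood at 14.1 to 29.4 against 16.6 to 26.8. In signalling feedback, PIM1, a kinase induced by JAK-STAT signals, ran from 279 to 689 FPKM (median 400) against 164 to 451 (median 241) over all lines. It was lower in 12 of 12 pairs (-0.70 ± 0.14, adjusted p = 0.000731), by -1.33 in parental cells and -0.19 in degron line 2. Of 15 ERK and JAK-STAT feedback genes, 7 were higher and 3 lower (PIM1, CISH and SOCS3). The list median was 0.46 in the parental line and 0.20 in LMO2 control, against -0.004 and -0.027 in the degron lines. Without the parental line 3 were higher and 3 lower, with a median of 0.02. The 3 pairs without other-tissue RNA gave 4 and 3, with a median of 0.06. A line contrast was called for 5 of the 15, and leaving out 1 pair gave 1 to 5.

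Mitochondrially encoded transcripts differed between bio reps in opposite directions on days 0 and 1. The list median was above 0 in the 4 pairs of day 0 (0.05 to 0.30) and below 0 in the 4 pairs of day 1 (-0.37 to -0.23), and 4 of 15 members had a called day 1 minus day 0 contrast, against 1.6% of all genes. Leaving out 1 pair gave 2 (without degron line 1 day 1) to 7 such members. Over all 12 pairs, 1 of the 15 was higher (MT-ND2, 0.26) and 4 lower, with a median of 0.00; the 3 day 0 pairs without other-tissue RNA gave 7 and 4, with a median of 0.10. MT-ND6, the complex I subunit encoded on the light strand, ran from 739 to 1724 FPKM (median 1162) in bio rep 1 and from 448 to 1476 (median 671) in bio rep 2. It was lower in 12 of 12 pairs (-0.69 ± 0.08, adjusted p = 1.69e-05). MT-ND5 was at 902 to 1815 (median 1238) against 643 to 1549 (median 873), or -0.44 ± 0.05 (adjusted p = 1.29e-05). Without strand, reads of MT-ND6 cannot be told apart from reads of the opposite strand over the same bases. Among nuclear genes of the respiratory chain, 10 of 21 were higher and 2 lower (UQCRC2 and SDHA), with a median of 0.07, but in the 3 pairs without other-tissue RNA 1 was higher and 1 lower. COX5A, a subunit of cytochrome oxidase, was at 86.5 to 142 FPKM (median 115) against 112 to 157 (median 141), higher in 12 of 12 pairs (0.27 ± 0.03, adjusted p = 4.49e-05). The largest rise by the rule was MT-TV, the mitochondrial valine tRNA gene, at 2.53 to 31.0 (median 7.24) against 8.77 to 58.8 FPKM (median 27.4), or 1.58 ± 0.28 (adjusted p = 0.000446). tRNA genes are shorter than usual sequenced fragments, so this FPKM is uncertain.

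The bio rep difference depended on the day for 722 genes (4.7%) by F test, for 246 genes between day 1 and day 0 (1.6%) and for 76 between day 4 and day 0 (0.495%). These counts move with single pairs: without degron line 1 day 1 they were 126, 51 and 48. DDIT4, a stress-induced inhibitor of mTORC1 and one of the HIF targets above, was at 118 to 208 FPKM in the 4 day 0 libraries of bio rep 1 and at 19.0 to 38.7 in those of bio rep 2, without overlap. On day 1 it was at 37.2 to 116 against 37.3 to 121, fully overlapping, and the day 1 minus day 0 contrast was 3.01 ± 0.37 (adjusted p = 0.00474). EGR1, an immediate early transcription factor, was at 2.38 to 40.6 FPKM on day 0 of bio rep 1 and at 115 to 279 on day 0 of bio rep 2. On day 4 the ranges were 12.3 to 66.2 and 16.1 to 42.7, and the day 4 minus day 0 contrast was -4.26 ± 0.67 (adjusted p = 0.0231), a call lost when any 1 of 5 pairs was left out. CD69, an early activation antigen, went the same way: 4.51 to 15.8 against 27.9 to 61.9 FPKM on day 0, 5.03 to 16.1 against 27.9 to 56.2 on day 1, and 13.9 to 50 against 12.2 to 34.2 on day 4. Its bio reps were apart on days 0 and 1 and overlapped on day 4 (-2.58 ± 0.21, adjusted p = 0.000451).

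TXNIP, an arrestin that answers glucose and restrains its uptake, turned its sign. On day 0 it was at 128 to 256 FPKM in bio rep 1 and 115 to 558 in bio rep 2; the parental pair was slightly lower and the others higher in bio rep 2. On day 1 it was at 197 to 928 against 87.6 to 499.6, and on day 4 at 114 to 1072 against 49.7 to 444, lower in bio rep 2 in each of the 8 pairs. The day means were 0.82, -0.94 and -1.27, with contrasts of -1.76 ± 0.25 on day 1 (adjusted p = 0.00736) and -2.10 ± 0.25 on day 4 (adjusted p = 0.00475). MT-ND1, a complex I subunit, was at 1296 to 1840 FPKM on day 0 of bio rep 1 against 2822 to 3192 in bio rep 2, and on day 1 at 2587 to 3556 against 2240 to 2765. It was therefore higher in bio rep 2 in the 4 day 0 pairs and lower in the 4 day 1 pairs (-1.35 ± 0.14, adjusted p = 0.00146). MTND1P23, a nuclear pseudogene of MT-ND1, shared this contrast (-1.30) and may share its reads.

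**Figure D5:**
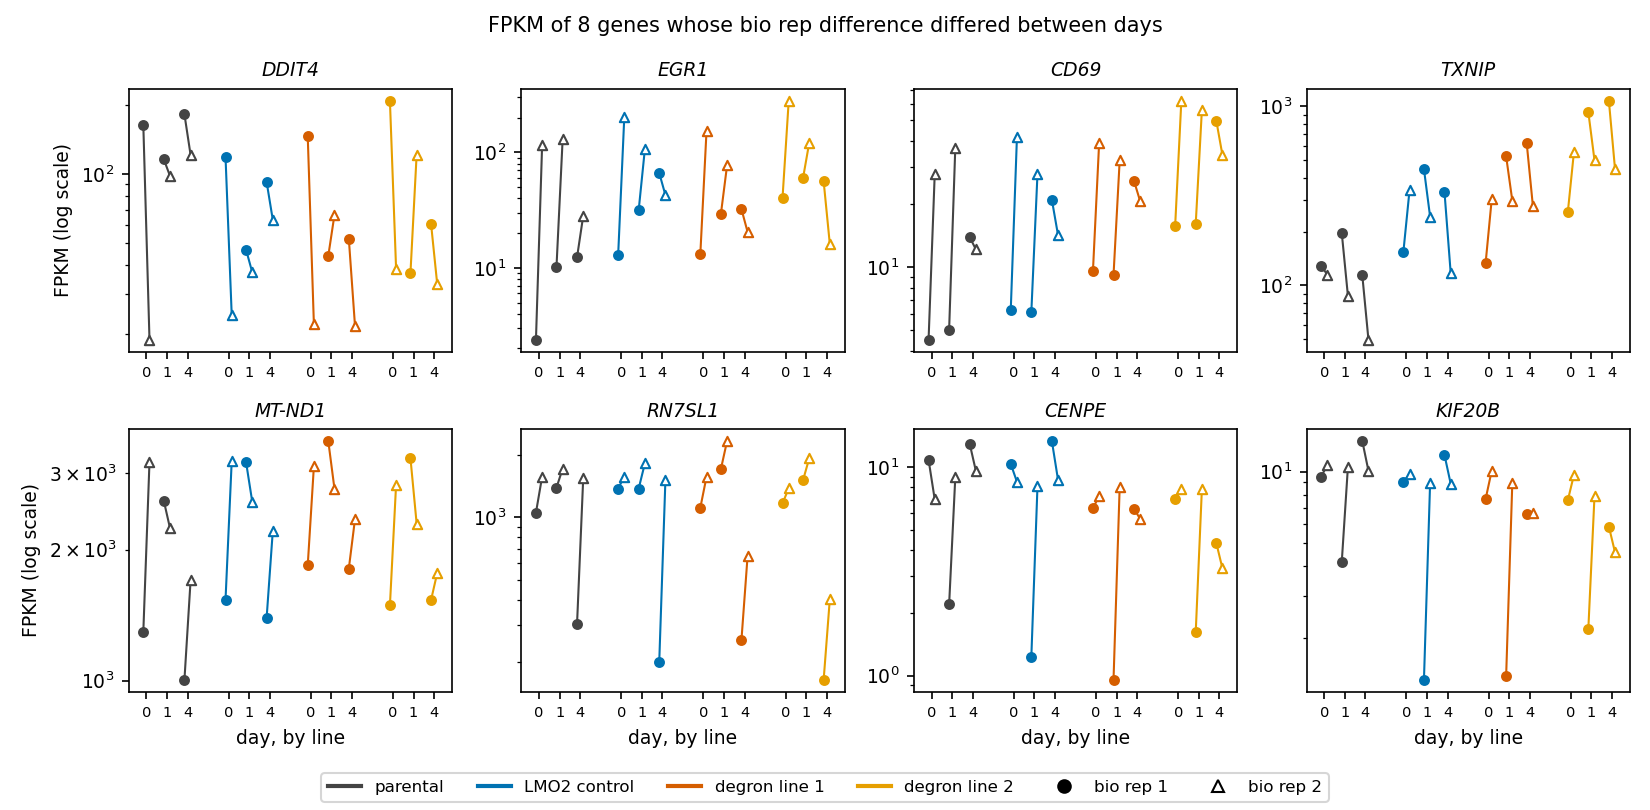
FPKM (log axis) of 8 genes whose bio rep difference differed between days, in the 24 libraries by day within each line; lines join pairs, filled circles are bio rep 1 and open triangles bio rep 2. CENPE is at 0.953 to 2.19 in the day 1 libraries of bio rep 1 and at 3.27 or more elsewhere, and RN7SL1 is at 164 to 306 in the day 4 libraries of bio rep 1.

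Several day contrasts rest on 4 libraries of 1 day and bio rep. CENPE, a mitotic kinesin with a long transcript, was at 0.953 to 2.19 FPKM in the day 1 libraries of bio rep 1 and at 3.27 to 13.4 in the other 20. KIF20B, another kinesin with a long transcript, was at 1.33 to 4.16 in those libraries and at 4.57 to 13.4 elsewhere. Their contrasts were 2.04 ± 0.18 (adjusted p = 0.000304) and 1.47 ± 0.19 (adjusted p = 0.00525). Base composition moved with the bio rep in 2 of the 4 day 1 pairs: among genes of at most 40% GC the median difference was 0.33 and 0.22 in LMO2 control and degron line 1, against -0.05 and -0.02 among genes over 60% GC. It was 0.09 against 0.10 in the parental pair and 0.10 against 0.03 in degron line 2. Pairs of other days moved as well, some with the opposite slope. The same medians were -0.06 against 0.18 in parental day 4 and -0.10 against 0.12 in LMO2 control day 4. They were -0.06 against 0.11 in degron line 1 day 4 and -0.02 against 0.13 in parental day 0. After adjustment for GC and length, chosen after seeing the data, CENPE stood at 1.78 (adjusted p = 0.000293) and KIF20B at 1.19 (adjusted p = 0.00657). The cause of these contrasts was not tested. RN7SL1, the RNA of the signal recognition particle, was at 164 to 306 FPKM in the day 4 libraries of bio rep 1 and at 1053 to 1710 in its other 8, while bio rep 2 stood at 401 to 2337. Its day 4 contrast was 1.59 ± 0.29 (adjusted p = 0.0401) and was lost in 9 of 12 fits that left out a pair. It has no poly(A) tail and near-identical copies, and its difference was 0.91 over all pairs. CSH1 had a day 1 contrast too; it is listed at 0 in 12 libraries and its values are given above with the placental markers.

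Medians of the remaining groups lay between -0.26 and 0.16. The lowest was that of 7 TXNIP and glucose sensing genes, 1 higher and 2 lower. In the 3 pairs without other-tissue RNA it was 0.01, with 2 higher and 0 lower. Of 7 metallothionein and zinc genes, 3 were lower (MT2A, SLC30A1 and SLC30A10), and MT2A was at 65.8 FPKM in the parental day 0 library of bio rep 1 and at 1.43 to 31.1 elsewhere. Of 13 p53 targets, 4 were higher and 5 lower; BBC3, the death gene PUMA, was at 3.10 to 14.8 FPKM (median 10.4) against 2.83 to 6.52 (median 4.01), or -1.02 ± 0.13 (adjusted p = 3.45e-05). Of 15 NRF2 and heme breakdown genes, 6 were higher and 6 lower, or 2 and 4 in the 3 pairs: the quinone reductase NQO1 differed by 0.92 ± 0.12 and the biliverdin reductase BLVRB by -0.63 ± 0.12. Of 13 interferon genes, 5 were lower and 0 higher, with a median of -0.04. Of 24 cholesterol genes, 7 were higher and 4 lower, and 10 and 1 in the 3 pairs without other-tissue RNA. More splicing genes (10 of 22) and cytoskeletal and SRF targets (11 of 26) were higher than the 23.8% of all genes, with 4 lower in each; the 3 pairs gave 11 and 4 for splicing and 6 and 3 for the cytoskeleton. Of 23 autophagy and lysosome genes, 6 were higher and 9 lower. Iron handling had 1 of 12 higher and 5 lower, among them NCOA4, the ferritin autophagy receptor (-0.39 ± 0.06). Of 10 noncoding RNAs, 6 were lower and 1 higher (SNHG12, 0.40). SPI1, the myeloid factor PU.1, was at 13.7 to 28.4 FPKM (median 24) against 21.4 to 37.7 (median 29.1), higher in 12 of 12 pairs (0.35 ± 0.06, adjusted p = 0.000197). Megakaryocyte genes had 3 lower and 2 higher of 6, with TUBB1 at -0.67. The 3 pairs without other-tissue RNA gave 2 higher and 5 lower autophagy genes, 2 and 2 p53 targets, 0 and 2 interferon genes, 0 and 5 iron genes, 2 and 4 noncoding RNAs, 0 and 2 metallothionein and zinc genes and 1 and 3 megakaryocyte genes.

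Some of the largest falls were noncoding loci or genes outside the lists. AC132938.6 was at 1.93 to 22.4 FPKM (median 9.48) in bio rep 1 and at 0.627 to 2.72 (median 1.41) in bio rep 2, lower in 12 of 12 pairs (-1.89 ± 0.27, adjusted p = 8.01e-05). AP001052.1 differed by -1.47 ± 0.22. It has 99 exon bases and a median of 7.5 reads per library, with 1 in the lowest, so its values are uncertain. Its difference was larger in the control lines than in the degron lines (contrast 1.38 ± 0.22, adjusted p = 0.0153, called in 12 of 12 fits that left out a pair); for AC132938.6 that contrast (1.56 ± 0.31, adjusted p = 0.0288) was called in 3 of 12. KLK1, tissue kallikrein, was at 5.31 to 27.1 FPKM (median 17.2) against 2.47 to 13.1 (median 5.81), a difference of -1.20 ± 0.10 (adjusted p = 4.98e-06) (by line, -1.61, -0.99, -1.26 and -0.94). FAXDC2 differed by -1.17 ± 0.18. NEFH, the heavy neurofilament subunit, was at 2.62 to 5.68 FPKM (median 3.51) against 3.44 to 17.7 (median 9.95), higher in 12 of 12 pairs (0.99 ± 0.15, adjusted p = 0.000107).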

How the data were processed

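RNA of 24 K562 libraries was analysed, 12 of each bio rep, as FPKM for 60642 genes in a table deposited by the authors; the other 12 samples of the series were not used here. The submitters' processing notes name FastQC, STAR, featureCounts and hg19; versions, annotation and strand setting are not given in the sources used here. Reads per library were recovered from the steps of low FPKM values with GENCODE 29 exon lengths: 9347 of 13118 low genes gave the same scale, and 76.9% of values of 1 to 20 reads came out whole within 0.01, so no count test was run.

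Values were analysed as log2(FPKM + 1), which understates changes of low genes. A filter of 1 FPKM in 2 or more libraries kept 15348 genes. These entered limma 3.58.1 under R 4.3.3, with trended and robust empirical Bayes moderation, 12 line-by-day terms and 1 bio rep term; further fits had bio rep by day and by line. Every adjusted p for a gene is limma's with Benjamini-Hochberg adjustment over all genes tested, called under 0.05. Pairing by line and day comes from the labels. Gene lists were described by counts and medians without a test, and library measures by exact sign-flip tests. Alternatives covered the pseudocount, filter, scaling, matching and left-out pairs, lines and days. The script was checked on simulated data.

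Comparison, members and 38 lists were chosen with earlier results of these data known. Named genes were LMO2, LDB1 and TAL1, the 10 largest rises and falls with a mean of at least 5 FPKM and 1 sign in 12 pairs, up to 3 members per list by adjusted p, and the 5 largest each way per day and line contrast; any other gene named was chosen after its values were seen. Promoters are RefSeq's on GRCh38.p14.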

Additional observations from a re-analysis of the deposited data

Results flagged for a closer look

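Among the 4 pairs of day 0, parental cells stood apart from the other lines in the size of the bio rep difference. The SD over genes of the matched difference was 0.581, and 415 genes were at least 2-fold higher and 866 at least 2-fold lower, each beyond the gap expected within 4 values. In all, 42 such sets of 4 pairs were looked at and 3 had an outlying pair, and with this rule chance marks about 1 set in 20. Both libraries of that pair carry one of the other-tissue traces; their part in the result was not tested.

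For 44 named genes the bio rep difference itself differed between days or between line classes (limma, adjusted p under 0.05). Over all genes tested, 2.7% had a called line contrast, 1.6% a day 1 contrast and 0.495% a day 4 contrast. Some of the 44 were named because their contrasts were among the 5 largest each way, which fixed their place in the count. The count is therefore no result about named genes. Values are contrasts of the bio rep difference in log2. Degron minus control lines, it was above 0 for TAL1 (0.62), AC132938.6 (1.56), AP001052.1 (1.38), SLC4A1 (1.89), SLC25A37 (1.02), FAXDC2 (1.04), CPOX (0.59), RHD (0.65), PPP1R15A (0.61), SLC30A10 (1.19), PIM1 (0.88), AC016629.2 (1.4) and AC003102.1 (1.32). It was below 0 for NEFH (-0.79), NQO1 (-0.63), SDF2L1 (-0.4), DNAJB11 (-0.32), PDIA4 (-0.42), S100A11 (-0.41), SERPINB9 (-1.05), CD3D (-1.05), CCND1 (-0.99), SPRY4 (-0.99) and TLNRD1 (-0.97). Day 1 minus day 0, it was above 0 for CSH1 (5.36), DDIT4 (3.01), MIR126 (2.31), CENPE (2.04), KIF20B (1.47) and AL355488.1 (1.13), and below 0 for TXNIP (-1.76), MT-ND1 (-1.35), MT-TY (-1.3), MTND1P23 (-1.3) and MT-TL1 (-1.25). Day 4 minus day 0, it was above 0 for RN7SL1 (1.59), ALDOA (0.68), ATF4 (0.55), HJV (1.18), AL713998.3 (1.09), FTLP3 (1.0) and AL355488.1 (1.0), and below 0 for TXNIP (-2.1), MT-TY (-1.21), EGR1 (-4.26), CD69 (-2.58) and SNORA73B (-1.52). Calls were counted over the 12 fits that each left out 1 pair. The line contrast was kept in 12 for TAL1, AP001052.1, PPP1R15A, SDF2L1, PDIA4, SLC30A10, PIM1, SERPINB9, TLNRD1, AC016629.2 and AC003102.1; in 10 for FAXDC2; in 9 for SLC25A37 and NQO1; in 7 for CCND1; in 6 for SLC4A1; in 3 for AC132938.6, NEFH, CPOX and CD3D; in 2 for RHD and SPRY4; in 1 for DNAJB11 and S100A11. The day 1 contrast was kept in 12 for TXNIP, MT-ND1, MT-TY, MTND1P23, MT-TL1, DDIT4, CENPE, KIF20B and AL355488.1; in 10 for CSH1; in 7 for MIR126. The day 4 contrast was kept in 12 for TXNIP, MT-TY and CD69; in 9 for FTLP3 and AL355488.1; in 7 for EGR1 and AL713998.3; in 4 for ATF4 and HJV; in 3 for RN7SL1, ALDOA and SNORA73B. For CSH1, listed at 0 in 12 libraries, the contrast depends on the pseudocount and is no bound on a fold. MIR126, of 85 bases and with 0 reads in its lowest library, lost its call with a pseudocount of 0.1. So did SNORA73B, SLC4A1 and SPRY4. The tRNA genes MT-TY and MT-TL1 have 66 and 75 bases, and AP001052.1 had a median of 7.5 reads, so their values are uncertain. MTND1P23 and FTLP3 are pseudogenes that may share reads with their parent genes.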

How the results depend on the processing

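The main count of 7592 called genes kept within 1.5 times under a pseudocount of 0.1, no filter, rescaling, quantile normalization (53.7% of calls higher, against 48.2% as deposited), lines as replicates, and each fit without 1 line, without 1 day or with the control lines alone. It was 4610 with a mean FPKM of at least 5, where 7403 genes were tested, and 3028 with the degron lines alone. With no replicate block, that is, without the pairing by line and day, it was 2773. Chosen after seeing the data, a GC and length adjustment gave 7868, and the 3 pairs without other-tissue RNA gave 3499 from 6 libraries. Leaving out 1 pair gave 6819 to 7704.

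Leaving out 1 pair moved the contrasts by over 1.5 times for most pairs. For days these were all but parental day 0 and day 4, and for day 1 all pairs of days 0 and 1. For day 4 they were all but LMO2 control day 0 and day 1 and parental day 1 and day 4, and for line classes all but the day 0 pairs of both degron lines and parental day 4. The ranges were 126 (without degron line 1 day 1) to 1094 (without parental day 1) for days, against 722; 51 to 580 with the same pairs left out for day 1, against 246; 14 (without degron line 1 day 0) to 88 for day 4, against 76; and 108 (without degron line 1 day 1) to 364 for line classes, against 415. The count over days was 435 after GC and length adjustment and that for day 4 was 49 with a pseudocount of 0.1; the cause was not tested. GATA2, not called at 0.11, turned to -0.014 without the parental line, -0.11 without day 0 and -0.20 in degron lines only. LMO2 kept its call in 11 of 30 settings. Line contrasts of SLC4A1, AC132938.6, CD3D and SPRY4 kept theirs in 9, 7, 7 and 4 of 16.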

Other observations

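By class of transcript, 29.9% of 10589 tested protein-coding genes were higher in bio rep 2 and 25.8% lower. Of 644 lincRNAs, 7.45% were higher and 32.1% lower, with a median of -0.12, and of 798 antisense genes 6.27% were higher and 30.1% lower, with a median of -0.10. Of 22 mitochondrial tRNA genes, 40.9% were higher and 4.55% lower, with a median of 0.41. Length and level differ between these classes, and their part in the result was not tested.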
